A study of Mus musculus with 36 samples.

Results

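The last 4 h of the dark phase were examined in the livers of mice exposed to chronic intermittent hypoxia (IH), by setting the 3 IH mice killed at ZT0 against the 3 killed at ZT20. These 6 libraries are part of a series of 36, and all symbols listed on a single row of the deposited tables were taken, 24066 of 24346. Zeitgeber time (ZT) counts hours from lights on, so ZT20 lies late in the active phase of these nocturnal mice and ZT0 is the moment at which the lights and the daily hypoxia come on. All mice of the series were wild-type C57BL/6JRj males aged 16 weeks, caged by 5 under a 12 h light period with food and water at all times, and no group carried a transgene or drug. The IH mice received 60 cycles of hypoxia per h, with a nadir of 5% and a peak of 21% inspired oxygen, from ZT0 to ZT8 for 4 weeks, and the control mice received cycles of air to air on the same schedule. At ZT20 and ZT0 the IH mice had therefore been in room air for 12 h and 16 h, and whether the ZT0 mice were killed before the cycles of that day began is not stated. Expression was measured in whole liver as FPKM (fragments scaled to transcript length and to the mapped fragments of the library), a unit that keeps no read counts, so the depth behind each value is not known.

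The liver clock is a feedback loop in which BMAL1 (encoded by Arntl) and CLOCK bind E-box elements and switch on Per and Cry genes, whose proteins then block that activation. A second loop runs through RORs, which activate Arntl, and REV-ERBs (Nr1d1 and Nr1d2), which repress it. Through output factors such as DBP, TEF and HLF this oscillator times much of hepatic metabolism, and the end of the night closes the feeding period of mice.

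Of the 34 gene lists examined, the 2 clock lists had the largest share of members whose libraries at ZT0 and ZT20 did not overlap. Of the 18 core clock and clock output genes, 11 had all 3 ZT0 libraries below all 3 ZT20 libraries and 1, Nr1d1, had all 3 above. Over all 13215 genes tested, 4.67% lay lower in this sense and 6.17% higher. That is 617 and 815 genes, or 680 and 569 when the FPKM of each library were rescaled to a common sum. Cry1 was 2.43-fold lower at ZT0 by the ratio of means, Per2 4.21-fold and Tef 3.68-fold, while Nr1d1 was 7.02-fold higher. No gene passed the test across all genes in the 6 libraries alone (limma, Benjamini-Hochberg adjusted p of 0.05, 0% of 13215), and none had an adjusted p under 0.764. By limma, 746 genes (5.65%) had an unadjusted P under 0.05, of which 338 (2.56%) were higher and 408 (3.09%) lower at ZT0. When the spread was taken from all 18 IH libraries, 20 genes passed (0.151%), and 5 of the 20 were clock or clock output genes. None of these 5 passed in that fit when ZT0 replicate 2, ZT20 replicate 1 or ZT20 replicate 2 was left out.

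One library stood apart from the other 5. In ZT0 replicate 2, 42 genes were over 4 times their level in each of the other libraries, against 2 to 4 such genes in every other library. Its correlations with the others across genes were 0.975 to 0.982, against 0.988 to 0.993 among the rest. The median SD of log2 values was 0.0887 at ZT20 and 0.133 at ZT0, and 0.103 at ZT0 without that library. The FPKM of the 6 libraries summed to between 546394 and 579428, and the median log2 difference over all genes was 0.00. The 10 hepatocyte markers were all above 0, with a summed level of 73374 to 76767 FPKM at ZT20 and 59460 to 68495 FPKM at ZT0. In bulk liver, fewer cells of a type and less RNA per cell cannot be told apart. Counts and medians of gene lists include ZT0 replicate 2, and they are also given without it where leaving it out moved them by more than 1.5 times. Without it, 12.1% of all genes lay higher and 6.52% lower without overlap, and the counts without it are to be read against these shares. Of all 13215 genes, 6757 had a higher and 6436 a lower mean at ZT0, or 7694 and 5496 without that library. Counts of means are to be read against these.

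The negative limb of the loop was lower at ZT0 for both Cry and all 3 Per genes. Cry1, a repressor of BMAL1 and CLOCK, had the smallest P of all genes tested (0.000135, adjusted 0.764, limma with Benjamini-Hochberg adjustment). It read 15.6, 19.0 and 15.0 FPKM at ZT20 and 5.64, 6.50 and 8.21 FPKM at ZT0. On the scale of log2(FPKM + 1), used for every log2 difference given here, the change was -1.18 (SE 0.15, n = 3 per time point), or -1.16 without ZT0 replicate 2. Its adjusted p was 0.0176 in the 18-library limma fit with Benjamini-Hochberg adjustment, and 0.0781 in that fit without ZT0 replicate 2. Per2 read 6.68, 9.60 and 5.43 FPKM at ZT20 against 2.68, 1.09 and 1.38 FPKM at ZT0. The 3 values of each time point thus stood well apart for both genes. Cry2 was 1.88-fold lower, at 7.80 ± 1.66 FPKM against 4.15 ± 0.342 FPKM (SD, n = 3). Per3 was low throughout, at 0.881, 1.35 and 0.529 FPKM at ZT20 and 0.140, 0.101 and 0.234 FPKM at ZT0. Per1, which also responds to glucocorticoids, was the least even, since ZT0 replicate 1 read 0.643 FPKM and its other ZT0 libraries 4.18 and 4.07 FPKM, just under the lowest ZT20 value of 4.28 FPKM.

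The REV-ERB genes were placed the other way. Nr1d1, the repressor of Arntl, lies at chr11:98767932-98775333 of mm10 and read 0.710, 0.585 and 0.776 FPKM at ZT20 and 3.56, 8.24 and 2.74 FPKM at ZT0. It was the 1 clock gene with every ZT0 library above every ZT20 library, and replicate 2 was the most extreme. The log2 difference was 1.68 (SE 0.32, adjusted p 0.0193 in the 18-library limma fit with Benjamini-Hochberg adjustment), and 1.29 without that library. Nr1d2, its paralog, read 1.29, 1.79 and 1.67 FPKM at ZT20 and 1.45, 3.43 and 3.29 FPKM at ZT0, so the groups overlapped. The activators Arntl, Clock, Npas2 and Rora overlapped as well. Arntl read 10.8, 10.6 and 10.4 FPKM at ZT20 and 9.60, 10.1 and 11.6 FPKM at ZT0, a difference of -0.03 (SE 0.09) that was smaller than its own error.

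The output factors followed the Per and Cry genes in direction, with 6 of 7 lower at ZT0 and not overlapping. Dbp, a PAR-domain activator of detoxification and lipid genes, read 1.08, 1.36 and 0.648 FPKM at ZT20 and 0.122, 0.0637 and 0.140 FPKM at ZT0. Tef, its relative, read 11.9, 17.6 and 7.48 FPKM at ZT20 and 3.29, 2.48 and 4.28 FPKM at ZT0. The groups stood apart in both, with ZT0 replicate 2 the lowest. Hlf was 1.65-fold lower, and Bhlhe40, a repressor of E-box genes, 1.72-fold. Bhlhe41 was 2.201-fold lower, but its means of 0.245 FPKM at ZT20 and 0.111 FPKM at ZT0 were low. In control its means were 0.0981 and 0.146 FPKM. Ciart, an inhibitor of BMAL1 and CLOCK, was 3.79-fold lower, from a mean of 0.817 FPKM to 0.215 FPKM. Nfil3, the repressor that competes with DBP for its sites, was the exception, at 21.2, 18.8 and 27.1 FPKM at ZT20 and 27.0, 37.0 and 31.7 FPKM at ZT0. Its lowest ZT0 value fell between the ZT20 values, and its difference was 0.50 (SE 0.17). At the nominal P of 0.01 that the study used for group tests, 9 of the 18 clock genes were lower and 1 higher, against 0.636% and 0.416% of all genes. Without ZT0 replicate 2, 11 of 18 were lower and 1 higher by non-overlap, where the shares over all genes were 6.52% and 12.1%. Leaving out a library cannot make separate groups overlap, so these counts could not fall and are no check on that library.

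**Figure D1:**
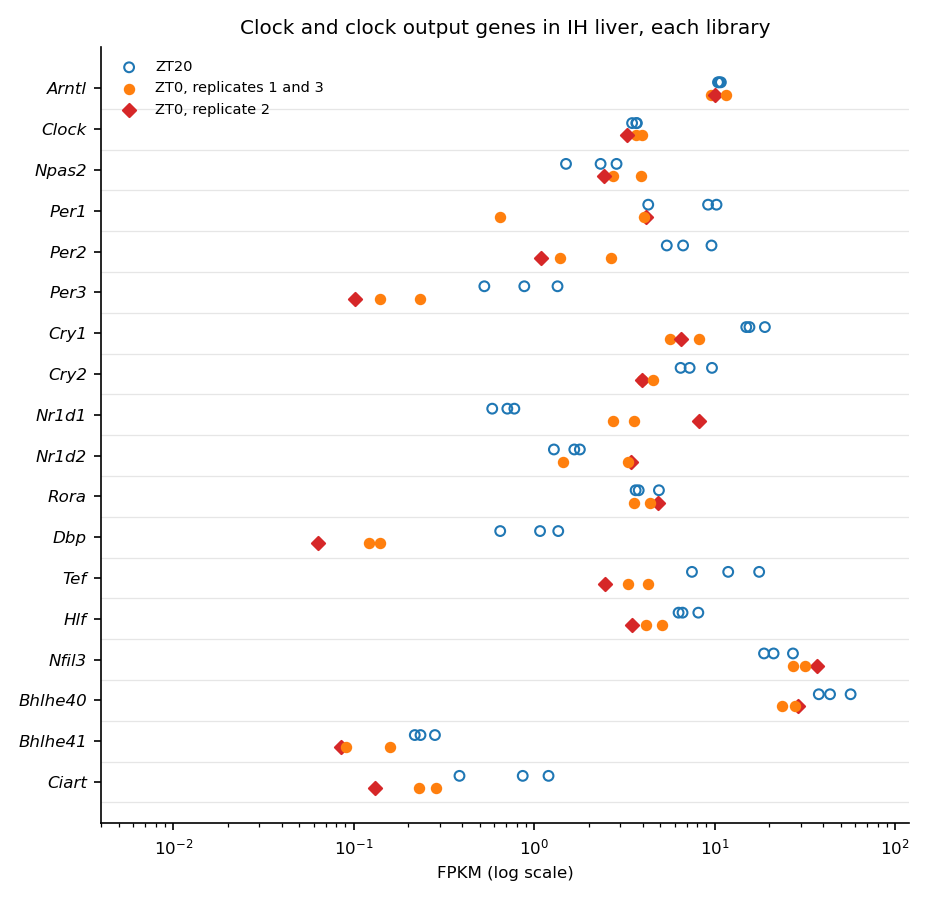
FPKM (log axis) of the 18 clock and clock output genes in each IH library, with open blue circles for ZT20, orange circles for ZT0 replicates 1 and 3 and a red diamond for ZT0 replicate 2. For 11 genes all ZT0 symbols lie left of all ZT20 symbols, for Nr1d1 they lie right of them, and for the other 6 genes the groups overlap.

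Promoters of clock genes are shown because the clock loop is built on the E-box. The letters CACGTG, which read the same on both strands, were searched in the 250 bases before each start site of RefSeq (GRCm38.p6). Of the 18 clock genes, 16 were in the table and 5 of these held the motif in at least 1 promoter (Per1, Cry1, Tef, Bhlhe41 and Ciart), or 31.25%, against 6.86% of 27025 genes counted in the same way. Counted by promoter it was in 6 of 21, against 6.02% of 32851. Cry1 held it once, 60 bases before the start, and Ciart 3 times, at 116, 58 and 44 bases. Capitals mark the motif, and a match is a description of the letters in this window only. Both stretches are read 5′ to 3′ on the minus strand, that of Cry1 from chr10:85185055-85185304 and that of Ciart from chr3:95882229-95882478.
Cry1: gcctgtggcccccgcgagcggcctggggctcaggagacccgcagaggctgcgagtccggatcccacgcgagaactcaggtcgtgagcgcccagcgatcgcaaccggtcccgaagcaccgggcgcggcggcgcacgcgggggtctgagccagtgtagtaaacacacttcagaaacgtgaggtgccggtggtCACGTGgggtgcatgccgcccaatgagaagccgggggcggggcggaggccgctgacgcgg
Ciart: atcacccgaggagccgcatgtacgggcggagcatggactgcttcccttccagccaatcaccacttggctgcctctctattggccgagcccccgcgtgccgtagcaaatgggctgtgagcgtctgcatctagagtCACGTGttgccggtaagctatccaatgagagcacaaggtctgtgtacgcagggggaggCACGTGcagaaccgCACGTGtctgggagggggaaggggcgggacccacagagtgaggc

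Set in the whole day, the interval from ZT20 to ZT0 met the genes at different points of their profiles. In IH liver the mean of Cry1 was highest at ZT20 of the 6 time points, that of Per2 at ZT16, and those of Dbp, Tef and Nr1d1 at ZT8. The lowest mean stood at ZT0 for Per2, Dbp and Tef, at ZT4 for Cry1 and at ZT20 for Nr1d1. The interval therefore covered the step of Cry1 down from its highest mean and the first step of Nr1d1 away from its low point. Between ZT0 and ZT4 the mean of Nr1d1 went on from 4.85 to 55.1 FPKM.

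**Figure D2:**
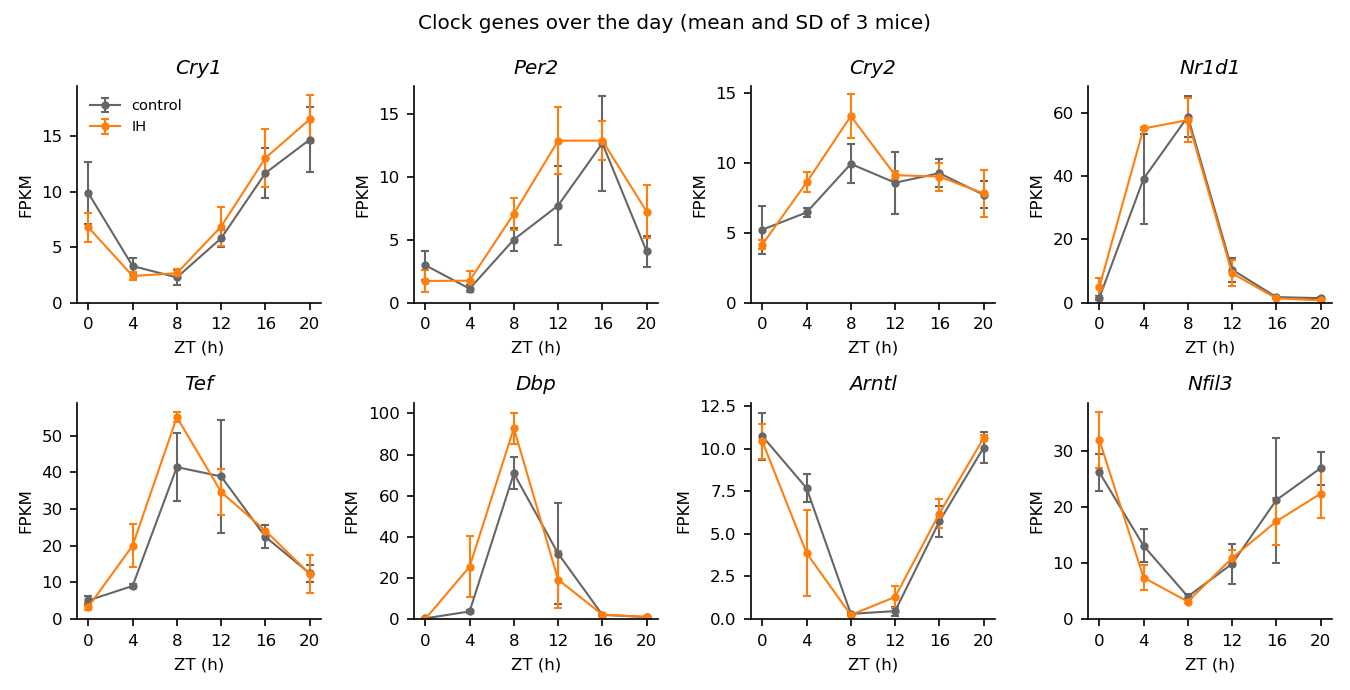
Mean FPKM with SD bars of 3 mice at each of 6 time points (ZT in h) for 8 clock genes, in control (grey) and IH (orange) liver. From ZT20 to ZT0, read from the right edge to the left edge of each panel, Cry1, Per2, Cry2, Tef and Dbp are lower in both conditions, and in IH Nr1d1 is 4.85 FPKM at ZT0 against 0.691 FPKM at ZT20.

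The same 4 h in control mice gave the comparison with and without hypoxia. In control liver 7 of the 18 clock genes were lower and 1 higher without overlap, against 5.24% and 18.2% of all genes there, and 12 of the 18 had the same sign in both conditions. For Per2 the difference was -0.36 (SE 0.24) in control and -1.61 (SE 0.26) in IH. Nr1d1 read 1.39 ± 0.254 and 1.44 ± 0.573 FPKM in control, a difference of 0.00 (SE 0.19) against 1.68 in IH. Nr1d2 was at -0.57 in control and 0.48 in IH, and Hlf at 0.02 and -0.62. These contrasts did not pass the test of the difference itself. With limma and Benjamini-Hochberg adjustment over 13215 genes in 12 libraries, the smallest adjusted p of any gene was 0.884, which was also the adjusted p of Nr1d1 (unadjusted 0.00167), Nr1d2 (0.00373) and Per2 (0.00905). In all, 0 genes passed (0%), 711 (5.38%) had an unadjusted P under 0.05 and 103 (0.779%) a nominal P of 0.01.

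**Figure D3:**
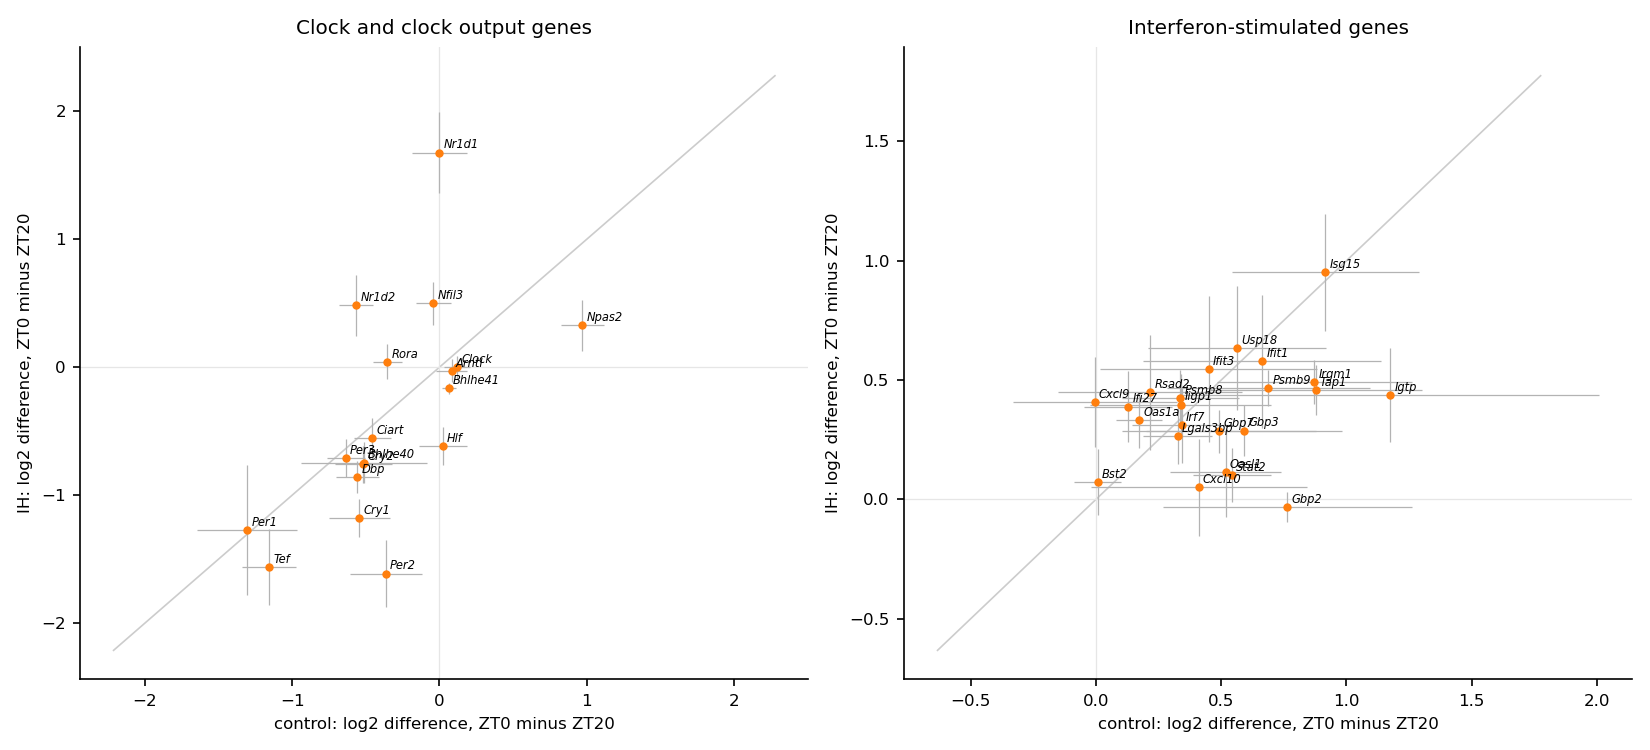
Log2 difference from ZT20 to ZT0 (ZT0 minus ZT20, of log2(FPKM + 1)) in control (x axis) and IH (y axis) liver for the 18 clock genes (left) and the 23 interferon-stimulated genes (right), with SE bars and a line of equal change. Nr1d1 lies at 0.00 in control and 1.68 in IH, and 22 of the 23 interferon-stimulated genes lie above 0 in IH.

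The 5 genes with the smallest P in that test were Tsacc, Actg2, Gm9199, Cdc42ep5 and Ebi3. Actg2, a smooth muscle actin, read 0.104, 0.173 and 0.0847 FPKM at ZT20 and 0.296, 0.393 and 0.397 FPKM at ZT0 in IH, while the control means were 0.170 ± 0.0321 and 0.111 ± 0.0436 FPKM. Cdc42ep5, an effector of the GTPase CDC42, was at -1.18 in control and 0.34 in IH. Ebi3, a subunit of interleukins 27 and 35, was at 0.11 and -0.18. Tsacc was at 0.43 in control and -0.36 in IH, and Gm9199 at -0.25 and 0.03. None of the 5 passed after adjustment.

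The 20 genes that passed in the fit on all 18 IH libraries were chosen after their values were seen. Of these, 14 were lower at ZT0 (0.106% of genes tested) and 6 higher (0.0454%). Besides Cry1, Per2, Cry2 and Tef, the lower genes included Usp2, a deubiquitinase that acts on clock proteins, and Wee1, the kinase that holds back entry into mitosis and a textbook output of the clock. Usp2 read 4.31, 10.7 and 3.93 FPKM at ZT20 and 0.618, 0.274 and 0.822 FPKM at ZT0, which made it 11.1-fold lower by the ratio of means, the largest ratio among the 20. Wee1 read 2.21, 2.30 and 1.28 FPKM at ZT20 and 0.653, 0.388 and 0.514 FPKM at ZT0. Neither gene had overlapping groups. The lower genes also included Vac14, a scaffold of the kinase that makes phosphatidylinositol 3,5-bisphosphate, Elmod3, Tnnc1 (cardiac troponin C), Dnase2b (an acid nuclease), C2cd4d, Col27a1 (a fibrillar collagen) and Gm19522. Their differences lay between -1.21 (Col27a1) and -0.44 (Vac14).

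The higher genes besides Nr1d1 were Col4a1 and Col4a2, the neighbouring genes of the main basement membrane collagen, Loxl4, a lysyl oxidase that crosslinks collagen, Alkbh2, a DNA repair enzyme, and Apof, an apolipoprotein made by hepatocytes. Col4a2 read 2.13, 2.099 and 2.26 FPKM at ZT20 and 3.44, 4.29 and 3.43 FPKM at ZT0. Col4a1 read 3.39, 3.18 and 3.57 FPKM at ZT20 and 5.07, 6.34 and 4.63 FPKM at ZT0. Loxl4 read 1.26, 1.31 and 1.33 FPKM at ZT20 and 2.13, 3.11 and 3.07 FPKM at ZT0. The ZT20 values of all 3 were tight and every ZT0 value lay above them. Apof, at 234 ± 11.5 FPKM at ZT20 and 305 ± 25.2 FPKM at ZT0 (SD, n = 3), was the most abundant of the 20. Of the 11 stellate cell and fibroblast markers, 1, Col3a1 (4.74, 3.74 and 4.69 FPKM at ZT20 against 5.30, 6.91 and 6.79 FPKM at ZT0), was higher without overlap and none lower. Over all genes 6.17% were higher and 4.67% lower without overlap. The summed level of that list was 130 to 149 FPKM at ZT20 and 111 to 171 FPKM at ZT0. Without ZT0 replicate 2 it was 151 to 171 FPKM at ZT0, above all 3 ZT20 libraries. Then 10 of 11 means were higher, against 7694 of all 13215 genes, and 3 of 11 genes were higher without overlap, against 12.1%. The part of these cells in the collagen values was not tested.

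How many genes passed in the 18-library fit depended on single mice at these time points. Without ZT0 replicate 2 there was 1 (0.00757%), without ZT20 replicate 1 there were 2, C2cd4d among them, and without ZT20 replicate 2 there were 5, among them G6pdx, Vac14, Pnpla5 and Col4a2. Without ZT0 replicate 1 there were 77 and without ZT0 replicate 3 there were 269. With all 36 libraries in the fit 12 genes passed, 11 of them among the 20.

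Interferon-stimulated genes formed the second group on 1 side. Of 23 tested, 22 had a higher mean at ZT0, 11 had all ZT0 libraries above all ZT20 libraries, and none had them below. Over all genes 6.17% lay above in this sense and 4.67% below. The median log2 difference was 0.40, and 0.39 without ZT0 replicate 2, when 16 of 23 lay higher without overlap against 12.1% of all genes. Psmb9, a catalytic subunit of the immunoproteasome, read 7.10, 7.58 and 7.67 FPKM at ZT20 and 10.4, 10.5 and 11.1 FPKM at ZT0 (0.47, SE 0.08). Tap1, which carries peptides to MHC class I, read 4.87, 4.66 and 4.45 FPKM at ZT20 and 7.23, 7.34 and 5.83 FPKM at ZT0. Both series were even within each time point. These neighbouring genes overlap on opposite strands at the start of Tap1 (chr17:34187553-34197225 of mm10), and the strand setting used for counting is not given in the sources used here.

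Irgm1, a GTPase of cell-autonomous defence, read 20.1, 18.7 and 17.1 FPKM at ZT20 and 26.9, 24.8 and 28.0 FPKM at ZT0. Isg15, a ubiquitin-like modifier, read 7.74, 5.03 and 5.55 FPKM at ZT20 and 10.1, 10.7 and 18.3 FPKM at ZT0, a difference of 0.95 (SE 0.25). In these genes ZT0 replicate 3, and not replicate 2, was the highest. By the nominal P of 0.01, 5 of the 23 were higher and 0 lower, and none passed after adjustment (limma, adjusted p of at least 0.764). Control mice had 22 of 23 means higher as well, with a median of 0.49 and 7 genes higher without overlap, where 8609 of all 13215 means were higher and 18.2% of genes higher without overlap. For Irgm1 the control difference was 0.87 (SE 0.39) and for Isg15 0.92 (SE 0.37). The control mice were uneven at ZT0 (SD, n = 3). Irgm1 was at 20.2 ± 2.21 FPKM at ZT20 and 42.7 ± 28.1 FPKM at ZT0, and Isg15 at 6.64 ± 1.12 and 14.9 ± 9.16 FPKM. Psmb9 was at 10.4 ± 1.69 and 19.6 ± 13.0 FPKM, and Tap1 at 5.49 ± 0.325 and 12.9 ± 9.75 FPKM. The smallest unadjusted P for a difference between the conditions in this list was 0.0531, so the data did not separate IH from control here.

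The promoters of Isg15 and Irgm1 are printed because the list is defined by its response to interferon, which acts through the interferon-stimulated response element. The letters GAAA, then 2 bases of any kind, then GAAA were searched on both strands of the same 250 bases, and overlapping matches were counted. It was found in 13 of the 20 list members that the RefSeq table holds, 65.0%, against 3.46% of all 27025 genes, a gene being counted where any of its promoters matched. Isg15 had 3 overlapping matches, which begin 78, 72 and 66 bases before the start, and Irgm1 had 2, at 30 and 24 bases. Capitals mark the matches. Both stretches are on the minus strand of GRCm38.p6, Isg15 from chr4:156200819-156201068 and Irgm1 from chr11:48871421-48871670.
Isg15: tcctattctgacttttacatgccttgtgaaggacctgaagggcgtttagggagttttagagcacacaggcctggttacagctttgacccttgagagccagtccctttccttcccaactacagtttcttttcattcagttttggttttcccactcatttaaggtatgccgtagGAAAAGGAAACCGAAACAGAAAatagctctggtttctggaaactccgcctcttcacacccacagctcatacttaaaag
Irgm1: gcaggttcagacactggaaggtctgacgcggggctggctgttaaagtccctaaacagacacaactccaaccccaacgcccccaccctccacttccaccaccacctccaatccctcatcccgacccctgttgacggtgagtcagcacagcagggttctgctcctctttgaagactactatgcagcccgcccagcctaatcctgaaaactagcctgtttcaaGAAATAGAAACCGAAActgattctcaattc

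**Figure D4:**
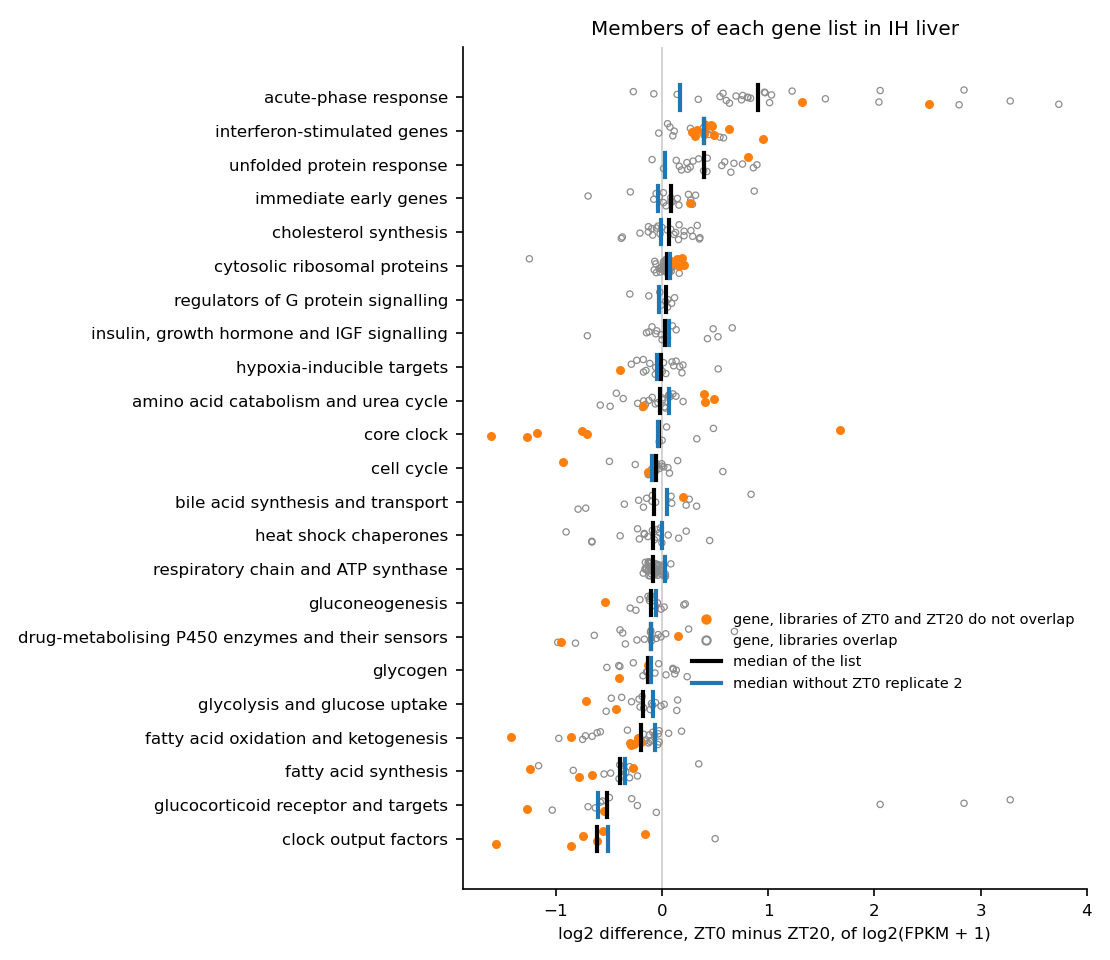
Log2 difference from ZT20 to ZT0 in IH liver for every tested member of the pathway lists, with the lists in order of their median. Filled orange points are genes whose libraries do not overlap, open grey points the rest, black bars the median and blue bars the median without ZT0 replicate 2, which moves the acute-phase list from 0.90 to 0.17 and the clock output list from -0.62 to -0.51.

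Genes of fatty acid synthesis had lower means at ZT0 in 16 of 17 cases, with a median of -0.40. It was -0.35 without ZT0 replicate 2, -0.65 without ZT20 replicate 2 and -0.26 without ZT20 replicate 1. Of the 17 genes, 4 did not overlap, all lower, against 4.67% of all genes lower without overlap. Thrsp, the thyroid hormone responsive protein that promotes lipogenesis, lies at chr7:97412938-97417730 of mm10 and read 703, 356 and 782 FPKM at ZT20 and 281, 175 and 299.5 FPKM at ZT0. Acly, which makes cytosolic acetyl-CoA, read 188, 106 and 199 FPKM at ZT20 and 84.1, 87.8 and 104 FPKM at ZT0. Acacb, an acetyl-CoA carboxylase of the mitochondrial surface, read 27.0, 15.3 and 26.4 FPKM at ZT20 and 13.6, 15.2 and 12.4 FPKM at ZT0. In all 3 genes ZT20 replicate 2 was far below the other ZT20 mice and close to the ZT0 values. Pnpla3, a lipid droplet protein, ran from 1.85 to 9.38 FPKM at ZT20 and from 1.21 to 1.90 FPKM at ZT0, so its groups just met. The desaturase Fads1, named after its values were seen, was the fourth gene without overlap, at -0.28. In control mice 7 of 17 were lower without overlap, against 5.24% of all genes, and the median was -0.31. Cholesterol synthesis, by comparison, had 13 higher and 11 lower means among 24 genes and none without overlap. Leaving out ZT0 replicate 2 put 1 higher without overlap, against 12.1% of all genes, and the median went from 0.06 to -0.01.

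Genes of glycolysis and glucose uptake had 15 of 18 means lower and 2 genes lower without overlap, with a median of -0.18, or -0.08 without ZT0 replicate 2. Gpi1, the isomerase of the second step, read 71.0, 68.9 and 74.2 FPKM at ZT20 and 59.1, 44.6 and 55.3 FPKM at ZT0. Pklr, the pyruvate kinase of liver, read 129, 96.6 and 159 FPKM at ZT20 and 88.4, 53.8 and 92.8 FPKM at ZT0, and ZT0 replicate 2 was the lowest in both. Of 15 gluconeogenic genes 1 (2 without ZT0 replicate 2), Gpt2, an alanine aminotransferase, was lower without overlap (89.0, 104 and 88.6 FPKM at ZT20 against 63.6, 59.0 and 70.0 FPKM at ZT0). The control difference of Gpt2 was -0.38 (SE 0.09) against -0.54 (SE 0.10) in IH. Among 17 glycogen genes 2 were lower without overlap, Gys2, the liver glycogen synthase (-0.41, or -0.20 without ZT0 replicate 2), and Epm2a, the phosphatase laforin (-0.13). These 3 lists are to be read against the 4.67% of all genes lower without overlap, or 6.52% without ZT0 replicate 2. The 1 of 15 gluconeogenic genes was near that share.

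Fatty acid oxidation and ketogenesis had 28 of 30 means lower at ZT0, with a median of -0.20. Of the 30 genes, 7 were lower without overlap, against 4.67% of all genes. Without ZT0 replicate 2 the median was -0.07 and 20 of 30 means were lower, against 5496 of all 13215 genes. Then 9 genes were lower and 1 higher without overlap, against 6.52% and 12.1% of all genes. ZT0 replicate 2 was the lowest of the 6 for 22 of the 30 genes, and for 4294 of all 13215 genes. Acot1, a cytosolic acyl-CoA thioesterase, read 30.7, 26.1 and 30.4 FPKM at ZT20 and 16.8, 3.32 and 17.1 FPKM at ZT0. Acot2, its mitochondrial paralog, read 4.49, 3.56 and 4.88 FPKM at ZT20 and 2.30, 0.892 and 2.95 FPKM at ZT0. The ZT0 groups lay below in both, and by much more in replicate 2. Acot1 and Acot2 are close in sequence, so reads may have been split between them. Ppara, the receptor that drives this program, read 18.7, 16.7 and 14.7 FPKM at ZT20 and 13.9, 13.9 and 12.2 FPKM at ZT0. Slc25a20, the carnitine carrier, read 62.7, 50.8 and 58.2 FPKM at ZT20 and 46.6, 44.3 and 47.5 FPKM at ZT0. Neither had such a gap for replicate 2. In control mice 20 of 30 means were higher at ZT0, with a median of 0.07, while 8609 of all 13215 genes had higher means there with a median of 0.05, and the smallest unadjusted P for the difference between conditions was 0.04995.

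Amino acid catabolism and the urea cycle were split, with 13 of 26 means on each side. Oat, which links ornithine to glutamate, read 116, 125 and 133 FPKM at ZT20 and 156, 192 and 179 FPKM at ZT0. Cbs, the enzyme of transsulfuration, read 165, 190.3 and 150.1 FPKM at ZT20 and 221, 208 and 233 FPKM at ZT0. Sdsl, a serine dehydratase relative, read 6.85, 7.67 and 6.97 FPKM at ZT20 and 8.13, 11.5 and 10.0 FPKM at ZT0. These 3 of 26 were higher without overlap, against 6.17% of all genes. Arg1, the last step of the urea cycle, was the 1 gene lower without overlap, at -0.18 (SE 0.11), against 4.67% of all genes. Ido2, an enzyme of tryptophan breakdown, overlapped at -0.43. The control difference of Oat was -0.01 (SE 0.16) against 0.49 (SE 0.11) in IH, and that of Cbs was 0.40 against 0.39.

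Targets of the glucocorticoid receptor had 11 of 14 means lower and a median of -0.52, or -0.61 without ZT0 replicate 2. The median was -0.29 without ZT0 replicate 1, -0.26 without ZT20 replicate 2 and -0.29 without ZT20 replicate 3. Fkbp5, the cochaperone that restrains the receptor, read 7.27, 9.70 and 7.05 FPKM at ZT20 and 4.80, 5.32 and 5.25 FPKM at ZT0. Fkbp5 and Per1, the latter given above, were the 2 of 14 genes lower without overlap, against 4.67% of all genes. Tsc22d3, which encodes GILZ, read 58.0, 132 and 102 FPKM at ZT20 and 25.6, 48.8 and 69.6 FPKM at ZT0. Tat, a tyrosine aminotransferase, read 604, 1345 and 1013 FPKM at ZT20 and 430.4, 846 and 672 FPKM at ZT0. Both overlapped, with ZT0 replicate 1 the lowest. In control mice 6 of 14 were lower without overlap, against 5.24% of all genes, and the median was -0.40. The 3 members that were higher on average were Mt1, Mt2 and Lcn2, each far higher in ZT0 replicate 2 than elsewhere. Without that library 12 of 14 means were lower and 2 higher, against 5496 and 7694 of all 13215 genes.

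Of 20 P450 enzymes and their sensors, Cyp2b10, the classical target of the receptor CAR, was lower without overlap at 11.9, 9.77 and 8.88 FPKM at ZT20 against 3.82, 3.63 and 7.46 FPKM at ZT0 (-0.95, SE 0.25). In control it differed by 0.06 (SE 0.46). Cyp2e1, chosen after its values were seen, was the 1 gene higher without overlap (0.15). With 1 of 20 on each side, the list was close to the 4.67% lower and 6.17% higher of all genes. The lower genes without overlap were 2 of 20 when ZT0 replicate 2 was left out, against 6.52% of all genes. Cyp2a4 and Cyp2a5 were at -0.82 and -0.98 (-0.51 and -0.54 without ZT0 replicate 2) with overlapping groups, and as close paralogs they may share reads. In bile acid synthesis and transport 1 of 16 genes, the uptake carrier Slco1b2, was higher without overlap (0.20), close to the 6.17% of all genes. There were 4 of 16 without ZT0 replicate 2, against 12.1% of all genes, and the median went from -0.08 to 0.04. Among 20 hypoxia-inducible targets 10 means were higher and 10 lower, and Bnip3, a mitophagy receptor, was the 1 gene without overlap, at 70.9, 69.4 and 75.9 FPKM at ZT20 against 59.1, 46.1 and 59.6 FPKM at ZT0. Its difference was -0.39 in IH and -0.34 in control. That share was close to the 4.67% of all genes lower without overlap. Without ZT0 replicate 2 there were 2 genes higher and 1 lower, close to the 12.1% and 6.52% of all genes.

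Lists of signalling and stress genes gave few separations. Over all genes, 4.67% were lower and 6.17% higher without overlap. These shares were 6.52% and 12.1% without ZT0 replicate 2, and the counts below are to be read against them. Among 20 heat shock chaperones none was without overlap, and Hspa4l and Hspb1 were at -0.40 and -0.90. Of 19 immediate early genes 1, Jund, was higher without overlap (0.27, SE 0.10). Once ZT0 replicate 2 was left out, 2 others were lower without overlap and the median went from 0.08 to -0.04. In the list for insulin, growth hormone and IGF signalling 0 of 16, among regulators of G protein signalling 0 of 9 and among cold-inducible RNA-binding proteins 0 of 2 were without overlap. These counts were 3 higher, 2 lower and 0 without ZT0 replicate 2. Of 20 cell cycle genes 2 were lower without overlap, Wee1, given above, and Ccne2, a cyclin of the start of DNA synthesis (-0.14), and without ZT0 replicate 2 there were 5.

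The size of the acute-phase differences rested largely on ZT0 replicate 2. Saa1, which encodes serum amyloid A and lies at chr7:46740497-46742980 of mm10, read 320.1, 19.6 and 92.1 FPKM at ZT20 and 111, 22865 and 79.7 FPKM at ZT0. Saa2, its near copy, read 101, 4.10 and 17.1 FPKM at ZT20 and 33.8, 24893 and 24.6 FPKM at ZT0, and reads may have been split between them. In both, ZT0 replicate 2 was far above the other 5 libraries. The same held for Lcn2, an iron-scavenging protein of innate defence (1436 FPKM against at most 8.34 FPKM elsewhere), and for Mt1 and Mt2, the metallothioneins, at 794 and 1087 FPKM against at most 7.75 and 2.13 FPKM. Of the 28 genes of this list, 26 were highest in that library. The median difference was 0.90 with it and 0.17 without it. Without it 23 of 28 means were higher, against 7694 of all 13215 genes. With it only 2 of the 28, Saa3 and Orm3, were higher without overlap, close to the 6.17% of all genes. Without it 2 members were higher and 2 lower without overlap, against 12.1% and 6.52% of all genes. The median was 1.41 without ZT0 replicate 3. In control 21 of 28 means were higher with a median of 0.15, where 8609 of all 13215 genes were higher with a median of 0.05.

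**Figure D5:**
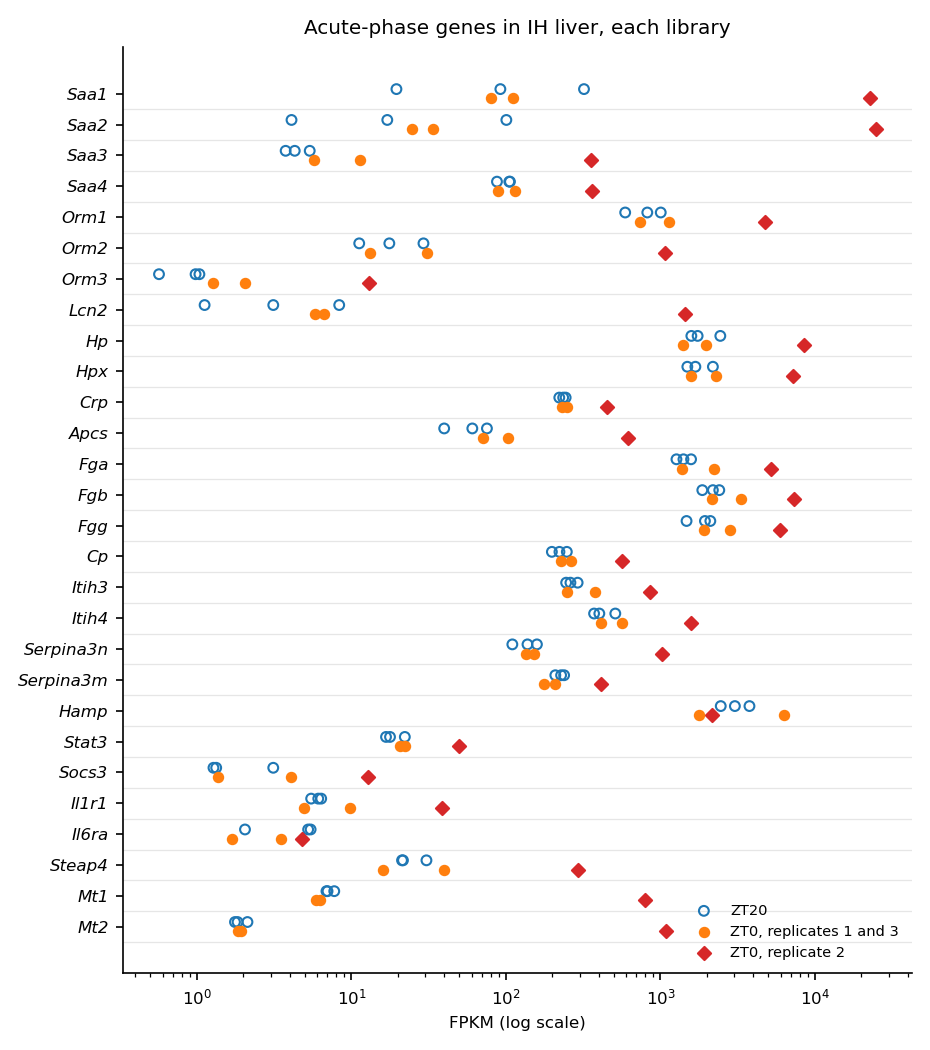
FPKM (log axis) of the 28 acute-phase genes in each IH library, with open blue circles for ZT20, orange circles for ZT0 replicates 1 and 3 and a red diamond for ZT0 replicate 2. For 26 genes the diamond is the highest of the 6 libraries, with Saa1 at 22865 FPKM against 19.6 to 320 FPKM in the others.

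The 4 members with the smallest P were Orm3, Apcs, Fgg and Fgb, and each was highest in ZT0 replicate 2 by a wide margin. Orm3, an orosomucoid, read 1.04, 0.569 and 0.981 FPKM at ZT20 and 1.28, 13.1 and 2.06 FPKM at ZT0. Apcs, serum amyloid P, read 75.4, 39.9 and 60.6 FPKM at ZT20 and 103, 619.8 and 71.6 FPKM at ZT0. Fgb, a fibrinogen chain, read 2404, 1866 and 2185 FPKM at ZT20 and 3325, 7326 and 2164 FPKM at ZT0. The neutrophil markers moved with that library, at a summed level of 15.4 FPKM there against 1.08 to 2.50 FPKM in the other 5, and all 7 tested were highest in it. Of the defining markers, S100a8 and S100a9 were above 0 in all 6 libraries, and Camp and Ngp were at 0 in all 3 ZT20 libraries. The part of these cells in the acute-phase values was not tested.

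The same library carried much of the unfolded protein response list, where 20 of 21 means were higher at ZT0 and 17 genes were highest in it. The median was 0.39 with it and 0.02 without it, and 0.73 without ZT0 replicate 3. Without ZT0 replicate 2, 11 of 21 means were higher, against 7694 of all 13215 genes. Chac1, a glutathione-degrading enzyme induced by ATF4, read 0.695, 0.358 and 0.647 FPKM at ZT20 and 0.776, 3.16 and 1.76 FPKM at ZT0. It was the 1 gene of 21 without overlap, close to the 6.17% of all genes higher in IH. Dnajb9, a cochaperone of BiP, read 28.6, 28.4 and 39.3 FPKM at ZT20 and 65.9, 86.8 and 34.6 FPKM at ZT0, so ZT0 replicates 1 and 2 were above and replicate 3 within the ZT20 range. Trib3 was at 0.34 and Atf4 at 0.29, both with overlap. In control the median was 0.16 and 5 of 21 were higher without overlap, against 18.2% of all genes there.

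Subunits of the respiratory chain and ATP synthase were the opposite case, since all 49 were lowest in ZT0 replicate 2. So were 4294 of all 13215 genes tested. The acute-phase list summed to 99829 of 579428 FPKM in that library, against 12786 to 22337 FPKM in the others. FPKM are relative to the library, and the part of this share in the low values was not tested. The median was -0.08 with 43 of 49 means lower, and 0.03 with 14 of 49 lower once that library was left out. Of the 49, 0 were without overlap with it and 7 were higher without it, against 12.1% of all genes. The median was -0.17 without ZT0 replicate 3. Cytosolic ribosomal protein genes were higher in 39 of 48 cases with a median of 0.04 (0.08 without ZT0 replicate 2 and -0.0074 without ZT0 replicate 1). Of these, 7 were higher without overlap, or 12 without ZT0 replicate 2, against 6.17% and 12.1% of all genes. Rplp2, a stalk protein of the large subunit, read 317, 315 and 321 FPKM at ZT20 and 379.6, 369 and 349.9 FPKM at ZT0. Rps29 was at 0.18, Rplp1 at 0.16 and Rps12, which overlapped, at 0.18.

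Among the markers of other liver cells, 12 of 12 Kupffer cell and macrophage genes had lower means at ZT0 once replicate 2 was left out, with a median of -0.27, and 10 of 12 with it (-0.09). None was without overlap with it and 3 were lower without it, against 6.52% of all genes. The median was 0.10 without ZT0 replicate 3, 0.01 without ZT20 replicate 1 and -0.25 without ZT20 replicate 2. Their summed level was 93.9 to 143 FPKM at ZT20 and 82.6 to 146 FPKM at ZT0, or 82.6 to 116 FPKM without replicate 2, so the groups overlapped. Marco, a scavenger receptor of Kupffer cells, read 5.68, 3.77 and 7.54 FPKM at ZT20 and 2.34, 4.04 and 1.15 FPKM at ZT0, and the control difference was 0.46 (SE 0.14) against -0.97 (SE 0.34) in IH, with an unadjusted P of 0.00491 for the difference (adjusted 0.884, limma with Benjamini-Hochberg adjustment). Endothelial markers summed to 55.4 to 68.3 FPKM at ZT20 and 47.0 to 62.2 FPKM at ZT0, lymphocyte markers to 0.807 to 1.36 and 0.518 to 1.32 FPKM, cholangiocyte markers to 32.4 to 39.3 and 34.6 to 66.8 FPKM, and erythroid markers to 44.2 to 57.9 and 40.4 to 51.8 FPKM. All 4 ranges overlapped. Once replicate 2 was left out, 1 of 10 endothelial genes was higher without overlap, against 12.1% of all genes. Of the 6 pancreatic acinar markers 3 were at 0 in all 6 libraries. Their summed level was 9.68 to 13.9 FPKM at ZT20 and 10.1 to 25.7 FPKM at ZT0, or 15.1 to 25.7 FPKM without replicate 2, above all ZT20 libraries. Only 2 of them were tested, and 1 mean was higher (0.41) and 1 lower (-0.08) at ZT0. Without replicate 2, 1 lay higher and 1 lower without overlap, against 12.1% and 6.52% of all genes. Among hepatocyte markers 1 of 10, Alb, which encodes albumin, was lower without overlap (37133, 37515 and 36516 FPKM at ZT20 against 29262, 26459 and 30774 FPKM at ZT0). Without ZT0 replicate 2 there were 2, where the shares over all genes were 4.67% with that library and 6.52% without it. In control Alb differed by -0.37 against -0.36 in IH. The nuclear RNA Malat1, listed as a sign of RNA quality, read 6.44, 5.25 and 5.11 FPKM at ZT20 and 7.19, 8.01 and 8.91 FPKM at ZT0, and its part in the other results was not tested.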

How the data were processed

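Polyadenylated RNA of whole liver from 36 mice, 3 per condition and time point, was sequenced by the authors on an Illumina platform from strand-specific libraries. Per the submitters' processing notes, reads were aligned with TopHat2 2.1.1 to mm10 and FPKM were estimated with Cufflinks 2.2.1. The annotation and strand setting are not given in the sources used here. The authors deposited these FPKM as 1 table per condition, with a column per library, and no counts, so depth is not known and no counting interval can be given. The 2 tables share their column names, so the condition of each was taken from the name of the table, and time point and replicate from the sample labels. No column was left without a sample. Each replicate is a separate mouse.

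From the FPKM, symbols on 1 row (24066, leaving out 280 repeated ones) were tested where they averaged 0.1 FPKM or more across all 36 libraries (13215) as log2(FPKM + 1), so changes of low genes are understated. limma 3.58.1 in R 4.3.3 (moderated test with intensity trend) compared IH ZT0 with ZT20 in 6 libraries, control ZT0 with ZT20 in 6, and the difference between both changes in 12, with a Benjamini-Hochberg adjusted p of 0.05. The study's own regularized test of 2 groups at P of 0.01 was replaced by limma, and that P was tried as a nominal threshold. Groups were said not to overlap when all libraries of one were above all of the other. Tests were run on simulated data first. The members and gene lists were chosen with earlier results of these data known. A few genes are not reported here and were left out of the lists, though not of the tests across all genes. Genes were named as all clock members, the 5 smallest P of the difference test, up to 4 members with the smallest P of each other list, and Saa1 and Saa2. Genes past the threshold were to be named too, but none passed. Alternatives were a pseudocount of 0.1, no filter, a mean of at least 1 FPKM, 3 scalings, no trend, summed repeated symbols, more libraries in the fit, the replicate number as a block and leaving out each library. The details of the 18-library fit, scalings and omission of ZT0 replicate 2 for counts of genes without overlap and for list medians were added after the data were seen. Coordinates are from GENCODE vM21 (mm10) and promoters from RefSeq (GRCm38.p6). Figures were drawn with matplotlib 3.10.9.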

Additional observations from a re-analysis of the deposited data

How the results depend on the processing

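The count of genes passing in the 6 IH libraries was 0 under 9 of the alternatives and when any library was left out. It was 20 with 18 IH libraries in the fit, 12 with 36 libraries and 139 at a nominal P of 0.01. The count of list members passing was 5 with 36 libraries. In control the count of genes passing was 13 with 36 libraries, 6 with a pseudocount of 0.1, 4 each with a mean of at least 1 FPKM, median of ratios and quantile normalization, 750 at a nominal P of 0.01 and from 0 to 4 without single libraries. The difference between conditions gave 103 at a nominal P of 0.01 and 0 otherwise. The 20 genes of the 18-library fit became 19 to 24 under other scalings, filters and pseudocounts and from 1 to 269 without single libraries. Genes without overlap numbered 1432, and 2459 without ZT0 replicate 2.

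Replicate numbers do not pair these mice, since the deviations of same-numbered libraries correlated at 0.0783, -0.166 and 0.0810 in IH. With the replicate number as a block 0 genes passed in the 6 IH libraries and 23 in the 18-library fit, and no call of the 6-library tests changed.

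Small differences turned sign. Clock, at 0.00, became -0.0239 with a common sum, -0.00147 with median of ratios, -0.000611 with a pseudocount of 0.1 and -0.00710 with quantile normalization, and Krt19 (0.01) -0.0115 with a common sum and -0.00516 with a pseudocount of 0.1. Without single libraries the log2 differences ranged from -0.0993 to 0.0250 for Arntl, -0.0487 to 0.0588 for Clock, -0.0363 to 0.150 for Rora, -0.121 to 0.224 for Cirbp, -0.217 to 0.00343 for Ghr, -0.00736 to 0.155 for Rgs5, -0.102 to 0.0209 for Cd3g, -0.163 to 0.0325 for Krt7, -0.0941 to 0.208 for Sox9, -0.175 to 0.129 for Krt19 and -1.16 to 0.00431 for Hbb-bs. None of these genes passed a test, and the causes were not tested. Of the other settings of single genes, 2249 kept direction and call and 5 gained a call, all with 36 libraries in the fit (Per2, Cry1, Nr1d1, Tef and Gpi1).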

Other observations

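Several genes that respond to hormones or feeding differed more between mice of one time point than between ZT20 and ZT0 in IH liver, and they are named here after their values were seen. Cish and Socs2, both induced by growth hormone through STAT5, were of this kind. Cish read 12.8, 0.858 and 3.80 FPKM in ZT20 replicates 1 to 3 and 20.8, 1.28 and 8.78 FPKM in ZT0 replicates 1 to 3. Socs2 read 14.4, 1.37 and 18.1 FPKM at ZT20 and 27.8, 2.24 and 19.3 FPKM at ZT0. In both genes replicate 2 was the lowest mouse at each time point. Igfbp1, an insulin-repressed binding protein of IGF1, read 51.9, 23.0 and 178 FPKM at ZT20 and 21.3, 234 and 129 FPKM at ZT0. Pck1, the entry enzyme of gluconeogenesis, read 212, 782 and 919.9 FPKM at ZT20 and 134, 845 and 802 FPKM at ZT0. Here ZT0 replicate 1 was the lowest mouse of all 6 in both genes. Alas1, the first enzyme of heme synthesis, read 131, 45.0 and 70.7 FPKM at ZT20 and 349, 56.3 and 88.4 FPKM at ZT0, with ZT0 replicate 1 the highest. The log2 differences from ZT20 to ZT0 were 0.66 (SE 0.99) for Cish, 0.48 (SE 1.07) for Socs2, 0.53 (SE 1.03) for Igfbp1, -0.25 (SE 0.86) for Pck1 and 0.68 (SE 0.70) for Alas1, each smaller than its error. In control mice Igfbp1 was at 145 ± 17.9 FPKM at ZT20 and 12.5 ± 12.9 FPKM at ZT0 (SD, n = 3), a difference of -3.84 (SE 0.58), and the test of the difference between conditions gave an unadjusted P of 0.00715 (adjusted 0.884, limma with Benjamini-Hochberg adjustment). Pck1 was at 1108 ± 236 and 342 ± 94.0 FPKM in control.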
